A study of Homo sapiens with 6 samples.

Results

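The microRNAs miR-221 and miR-222 were followed here through their 4 mature arms, hsa-miR-221-3p, hsa-miR-221-5p, hsa-miR-222-3p and hsa-miR-222-5p. The arms were chosen by name, as both arms of each of the 2 precursors, out of 28846 small RNAs listed for every sample, of which 2596 are microRNA entries. All 4 were listed in all 6 samples. The samples were K562 cells, a human erythroleukemia line that can be driven toward the erythroid or the megakaryocytic fate. In 3 control samples the cells carried the empty lentiviral vector, which expresses GFP alone. In 3 RUNX1 samples they carried the same vector with human RUNX1 in addition to GFP. Small RNA was sequenced after 10 days in culture in both conditions, and the comparison asks which microRNAs follow over-expression of RUNX1, a transcription factor of blood development. The model is a single leukemic line with a transgene brought in by a virus, and the small RNA counts hold no measure of RUNX1 itself.

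MiR-221 and miR-222 are encoded side by side and are cut from one primary transcript. Each hairpin precursor yields a duplex, and usually one strand of it, the guide, is kept by an Argonaute protein while the other is lost. The guide pairs with messenger RNAs mainly through its seed, bases 2 to 8, and lowers their output. In blood precursors the pair is best known for repressing KIT, the receptor for stem cell factor, and in many tumours for repressing the cell cycle inhibitor CDKN1B.

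The mature sequences are shown since the seed ties miR-221 to miR-222. They are from RefSeq on GRCh38.p14, 5′ to 3′, with the seed in capitals, and 3 of the 4 arms were matched there by name. All lie on the minus strand, miR-221-3p at chrX:45746180-45746202, miR-222-3p at chrX:45747036-45747056 and miR-222-5p at chrX:45747073-45747094.
hsa-miR-221-3p: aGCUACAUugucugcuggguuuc
hsa-miR-222-3p: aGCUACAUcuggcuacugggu
hsa-miR-222-5p: cUCAGUAGccaguguagauccu
The 3p arms, the guides of both precursors, share the seed GCUACAU, and no other of 2370 human mature sequences in the same table holds it. Over the 21 positions they have in common they are identical at 11, and the first 8 bases are the same. Counted from 1 at the 5′ end, with the miR-221-3p base first, the first difference is U9C. miR-221-3p is 23 bases long and miR-222-3p 21. The seed of miR-222-5p, UCAGUAG, was found in no other mature sequence of the table.

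The precursors are shown to place the arms, with the mature sequences given above in capitals.
MIR221: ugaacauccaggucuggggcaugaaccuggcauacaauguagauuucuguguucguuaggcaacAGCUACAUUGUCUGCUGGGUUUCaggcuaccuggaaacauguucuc
MIR222: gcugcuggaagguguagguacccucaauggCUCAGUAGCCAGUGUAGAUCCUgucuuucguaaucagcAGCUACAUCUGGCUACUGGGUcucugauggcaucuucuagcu
MIR221 lies at chrX:45746157-45746266 and MIR222 at chrX:45747015-45747124, with 748 bases between them. Both sit within MIR222HG, a lincRNA gene of 25064 bases at chrX:45745211-45770274 on the minus strand (GENCODE 29, GRCh38). In one of its 2 annotated transcripts both precursors are intronic, with MIR222 the nearer to the start and MIR221 ending 56 bases before the next exon. The other transcript does not reach them. The precursors lie 23150 and 24008 bases downstream of the annotated start of the host gene. Counts were assigned to names by the authors, and these coordinates were used only to describe the locus.

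The 6 libraries held between 1618248 and 15245007 counts, the shallowest being control replicate 1 and the deepest RUNX1 replicate 1. A floor of 3 counts corresponded to 1.85 CPM (counts-per-million of the library total) in the shallowest library and 0.197 in the deepest. Replicates differed by more than sampling noise. Among RUNX1 samples the pairs that include replicate 3 differed most, at 314 and 451 in chi-square per degree of freedom against 56.3 for the other pair. Control pairs were at most at 21.9, but this measure grows with depth and every RUNX1 library was deeper than every control. The values therefore do not compare the spread of the 2 conditions. MiR-10a-5p went from a mean of 6.33% of a control library to 27.5% of a RUNX1 library, and the TMM factors that balance the libraries averaged 1.28 and 0.786. The erythroid microRNA miR-451a, a marker of the line, was abundant in all samples, at 2710 to 3160 TMM-scaled CPM in control and 1310 to 1860 in RUNX1 samples. Among the other erythroid markers miR-144-5p (926 to 1040 against 502 to 904) and miR-486-5p (686 to 806 against 294 to 678) were also lower in RUNX1 samples, and miR-144-3p (111 to 136 against 225 to 252) was higher. Of 7 microRNAs of other cell types, miR-206 and miR-124-3p were at 0 throughout, and the list summed to 67.9 to 76.1 CPM in control and 172 to 212 in RUNX1 samples, nearly all of it miR-375. The part of these shifts in the results for miR-221 and miR-222 was not tested. In bulk samples like these, more RNA per cell cannot be told apart from more cells that express it.

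The guide arms of both precursors rose in RUNX1 samples, miR-221-3p by far more than miR-222-3p. MiR-222-5p, which was near the limit of detection in control, was also higher, whereas miR-221-5p overlapped between the conditions. By the thresholds of the study, which ask for P-values under 0.05 and log2 fold changes of 0.5 or more in size, 3 of the 4 arms were up-regulated and 0 down-regulated. Over all 947 small RNAs tested, 28.0% were up-regulated and 29.6% down-regulated, and over the 598 tested microRNAs 33.4% were up-regulated and 22.6% down-regulated. Changes were thus common in this comparison, and 1 of the 3 calls, that of miR-222-5p, concerns an arm that passed the count filter only through its RUNX1 samples and so had to differ. The 3 other arms were above the filter's level of 1.42 CPM in every sample.

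MiR-221-3p, the guide of miR-221, was counted 9, 47 and 62 times in control replicates 1, 2 and 3, and 1513, 789 and 727 times in RUNX1 replicates 1, 2 and 3. As TMM-scaled CPM, the unit of the levels that follow unless another is named, the controls stood at 4.30, 5.83 and 8.16 and the RUNX1 samples at 131, 126 and 106. All RUNX1 samples were above all controls, and the highest control and the lowest RUNX1 sample were far apart. The mean went from 6.10 ± 1.94 CPM to 121 ± 13.3 CPM (SD, n = 3 each), a 19.9-fold difference. The log2 fold change was 4.22 (standard error 0.217, 95% interval 3.73 to 4.72, adjusted p = 1.04e-06 by edgeR's quasi-likelihood F-test and the Benjamini-Hochberg method). It was the 10th largest rise among the 598 tested microRNAs. Ordered by counts within a library, miR-221-3p moved from places 401, 371 and 339 among the microRNAs to places 135, 136 and 145.

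MiR-222-3p, the guide of miR-222, was counted 33, 109 and 114 times in the controls and 1128, 520 and 480 times in the RUNX1 samples. On the CPM scale the controls were at 15.8, 13.5 and 15.01 and the RUNX1 samples at 97.9, 83.2 and 70.1. The conditions did not overlap, and the controls lay close together. From 14.8 ± 1.15 CPM the mean went to 83.7 ± 13.9 CPM (SD, n = 3 each), a 5.67-fold difference. The log2 fold change was 2.52 (standard error 0.174, 95% interval 2.12 to 2.91, adjusted p = 4.12e-06 by edgeR and Benjamini-Hochberg), the 22nd largest rise. Within a library the arm moved from places 266, 280 and 277 to places 150, 166 and 180.

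MiR-222-5p, the strand opposite the guide in miR-222, had only 1, 2 and 3 counts in the controls, while the RUNX1 samples had 57, 30 and 28. These are 0.478, 0.248 and 0.395 CPM against 4.95, 4.80 and 4.09 CPM. Every RUNX1 sample was above every control, but each control count was at or under the floor of 3. In CPM of the library total, without TMM scaling, the share was 0.618 in control replicate 1 with a 95% Clopper-Pearson interval of 0.0156 to 3.44, and 3.74 in RUNX1 replicate 1 with an interval of 2.83 to 4.84. These intervals cover counting error only, and overlap for this pair of libraries. The intervals of control replicates 2 and 3, 0.0394 to 1.17 and 0.0999 to 1.42, lay below those of all RUNX1 samples, the lowest of which began at 2.35. Pooled over the libraries of a condition, there were 6 counts in control and 115 in RUNX1 samples. With TMM scaling of the library sizes their ratio was 13.8 (95% counting interval 6.15 to 38.4). The fit gave a log2 fold change of 3.70 with a standard error of 0.361 (edgeR, Benjamini-Hochberg adjusted p = 3.19e-05), which depends on the handling of these low counts. DESeq2 gave 3.84 with a standard error of 0.720. The edgeR value was derived from the F of the test and understates the error at such counts.

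MiR-221-5p, the strand opposite the guide in miR-221, was counted 15, 55 and 62 times in the controls and 146, 111 and 44 times in the RUNX1 samples. Scaled, the controls were at 7.17, 6.83 and 8.16 CPM, and the RUNX1 samples at 12.7, 17.8 and 6.42 CPM. RUNX1 replicates 1 and 2 were above all controls, and RUNX1 replicate 3 was the lowest of the 6 samples. The mean of 12.3 ± 5.68 CPM over RUNX1 samples compares with 7.39 ± 0.695 CPM over controls (SD, n = 3 each). The log2 fold change of 0.72 (standard error 0.341, 95% interval -0.05 to 1.49) did not pass the test (unadjusted p = 0.0634, adjusted p = 0.0973, edgeR with Benjamini-Hochberg). Without RUNX1 replicate 3 it was 1.09 (standard error 0.198, adjusted p = 1.86e-05 by the same test) and passed. With library size as the only scaling it was -0.0019 with a standard error of 0.308, no direction either way, and this scaling lowered the median over all tested small RNAs by 0.698.

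**Figure D1:**
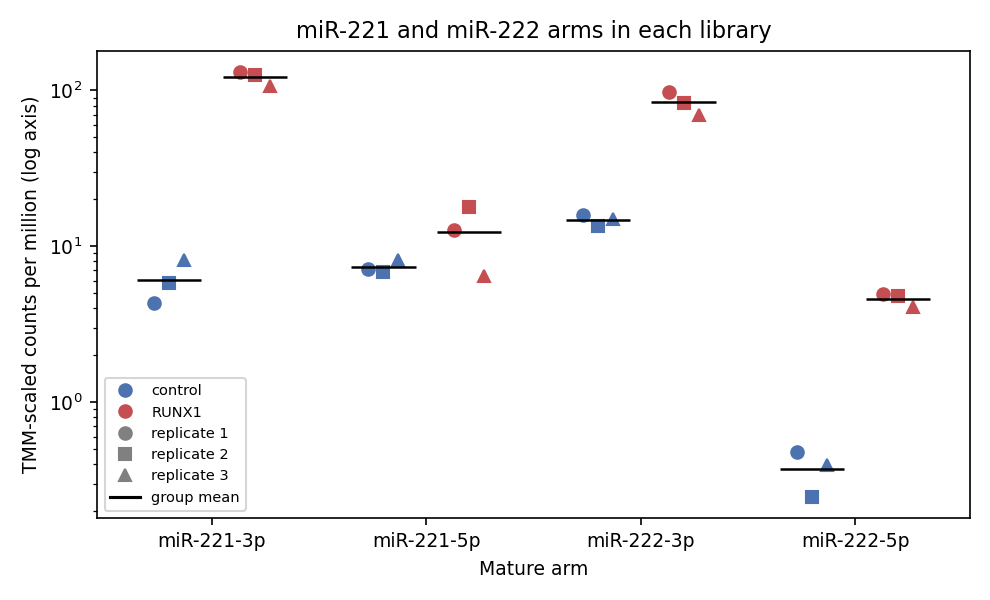
TMM-scaled CPM on a log axis for each of the 4 arms, with 1 point per library, symbols for the replicate number and a line at the group mean of 3 libraries. The RUNX1 samples (red) are above the controls (blue) for miR-221-3p, miR-222-3p and miR-222-5p, while for miR-221-5p RUNX1 replicate 3 falls to 6.42 CPM, below all controls.

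RUNX1 replicate 3 stood farthest from the other RUNX1 samples. Without it, the log2 fold changes of the other arms were 4.38 for miR-221-3p, 2.73 for miR-222-3p and 3.87 for miR-222-5p. Leaving out any other single library gave 4.14 to 4.52, 2.42 to 2.59 and 3.42 to 3.89 for these arms. Both guides passed the thresholds each time. Counts scaled by library size alone gave the smallest values, 3.53, 1.81 and 3.02.

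**Figure D2:**
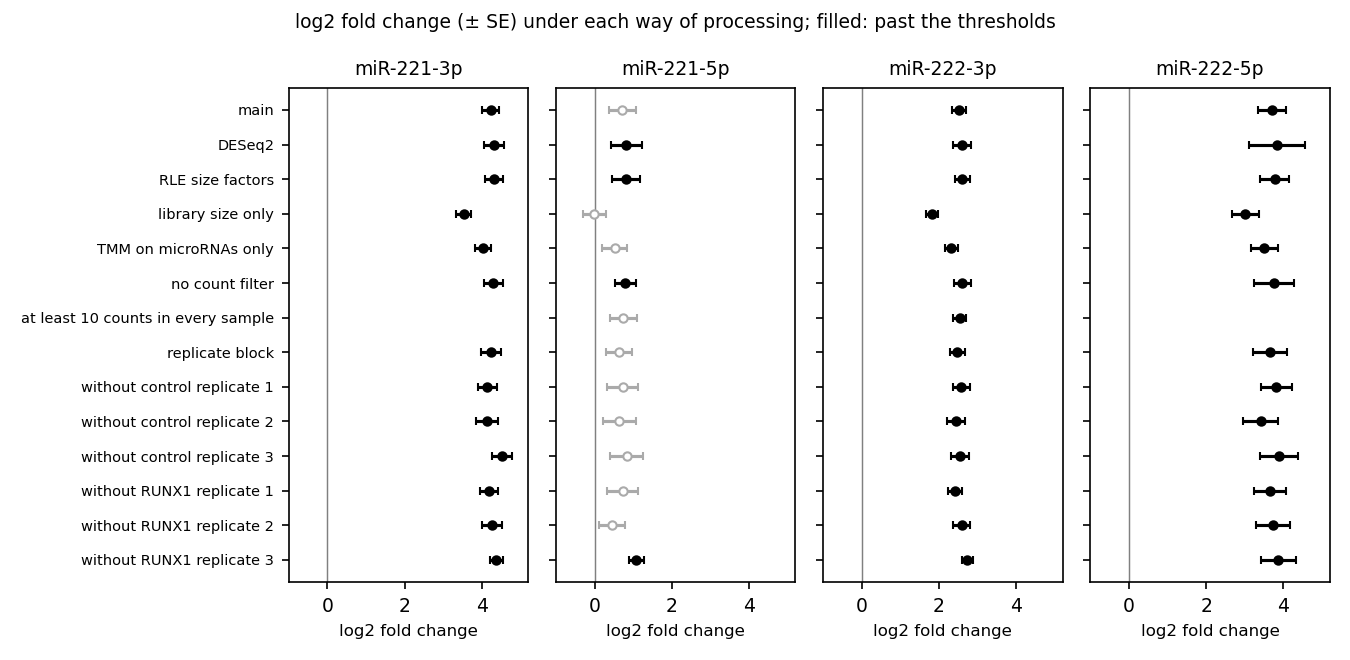
Log2 fold change of each arm (points) with its standard error (bars) under each way of processing the counts, where filled points pass the thresholds and open grey points do not. MiR-221-3p, miR-222-3p and miR-222-5p are filled wherever they could be tested, and miR-221-5p ranges from -0.0019 with library size only to 1.09 without RUNX1 replicate 3.

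Relative to the other tested microRNAs, the changes of miR-221-3p and miR-222-3p were large, at places 10 and 22 of 598 by fitted rise, and that of miR-221-5p stood at place 172. The place of miR-222-5p, 12, follows from low control counts and a filter passed only under RUNX1, and is given as a description. The median log2 fold change was 0.11 over the tested microRNAs and -0.06 over all tested small RNAs.

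**Figure D3:**
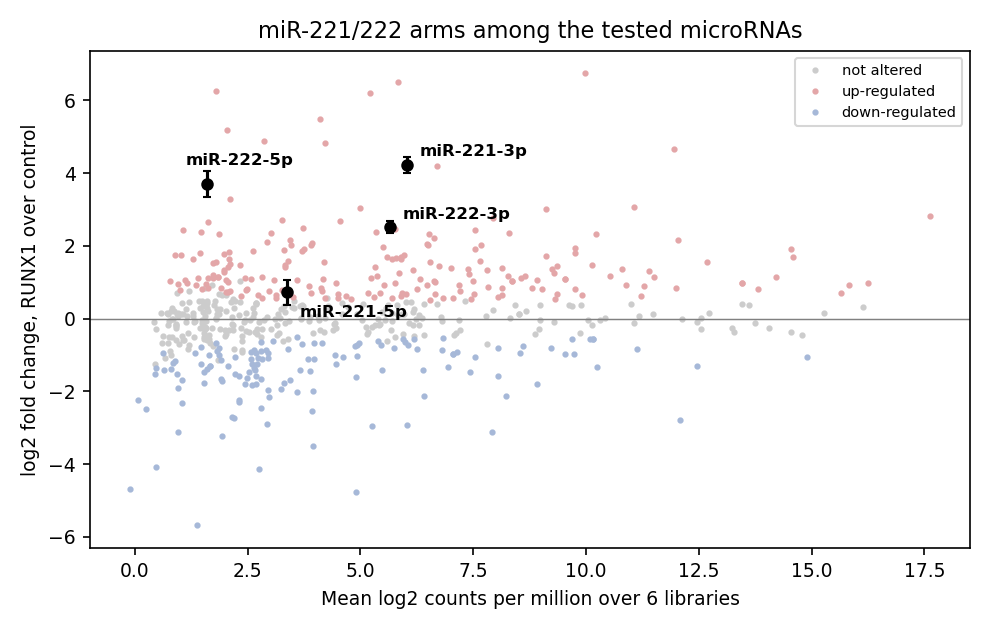
Log2 fold change of RUNX1 over control against the mean log2 CPM over 6 libraries for the 598 tested microRNAs, colored by call, with the 4 arms in black and bars for their standard errors. MiR-221-3p at 4.22 and miR-222-3p at 2.52 lie among the upper points at a medium level, miR-222-5p at 3.70 lies at the low end, and miR-221-5p at 0.72 lies at the edge of the unaltered points.

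The order of the arms differed between the conditions. In control samples miR-222-3p was the highest at 13.5 to 15.8 CPM, miR-221-5p at 6.83 to 8.16 CPM and miR-221-3p at 4.30 to 8.16 CPM overlapped, and miR-222-5p was the lowest. In RUNX1 samples miR-221-3p came first at 106 to 131 CPM, without overlap with miR-222-3p at 70.1 to 97.9 CPM, and miR-221-5p and miR-222-5p followed. Small RNAs are cloned with unequal efficiency, so the ratio of 2 arms in counts is not a ratio of molecules, but its difference between conditions needs no scaling of the libraries.

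All ratios were taken with 0.5 added to each count. Between the guides, the ratio of miR-221-3p to miR-222-3p was 0.284, 0.434 and 0.546 in the controls, and 1.34, 1.52 and 1.51 under RUNX1. Every control had fewer counts of miR-221-3p than of miR-222-3p and every RUNX1 sample had more. On the log2 scale the ratio went from -1.30 ± 0.479 to 0.54 ± 0.102 (SD, n = 3 each), a difference of 1.84. The exact two-sided permutation test gave p = 0.1, the smallest that 3 samples against 3 allow. A limma fit of this ratio together with those of all arm pairs, chosen after the data were seen, gave a standard error of 0.259 and an adjusted p = 0.000477 (Benjamini-Hochberg). The guides of the neighbouring precursors thus changed by unequal amounts.

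Within miR-221 the ratio of the 3p to the 5p arm was 0.613, 0.856 and 1 in control. In the RUNX1 samples it was 10.3, 7.08 and 16.3. No control had more 3p than 5p counts, and each RUNX1 sample had several times more. The log2 ratio went from -0.31 ± 0.361 to 3.41 ± 0.605 (SD, n = 3 each), a difference of 3.72 (exact permutation test, p = 0.1). In the limma fit over arm pairs the standard error was 0.34 and the adjusted p = 7.26e-05 (Benjamini-Hochberg). RUNX1 replicate 3, which had the lowest miR-221-5p level, had the highest ratio, and leaving out single libraries gave differences of 3.41 to 4.01.

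Within miR-222 the ratio of the 3p to the 5p arm, with 0.5 added to each count, was 22.3, 43.8 and 32.7 in control. In the RUNX1 samples it was 19.6, 17.1 and 16.9. The controls were all higher, but each control ratio rests on 3 or fewer 5p counts, and with 1 in place of 0.5 added to each count the conditions overlapped (difference -0.57, exact permutation test, p = 0.2). On the log2 scale 4.99 ± 0.487 stood against 4.15 ± 0.122 (SD, n = 3 each), a difference of -0.83 (exact permutation test, p = 0.1). The limma fit gave a standard error of 0.329 and an adjusted p = 0.0652 (Benjamini-Hochberg), which did not pass 0.05.

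**Figure D4:**
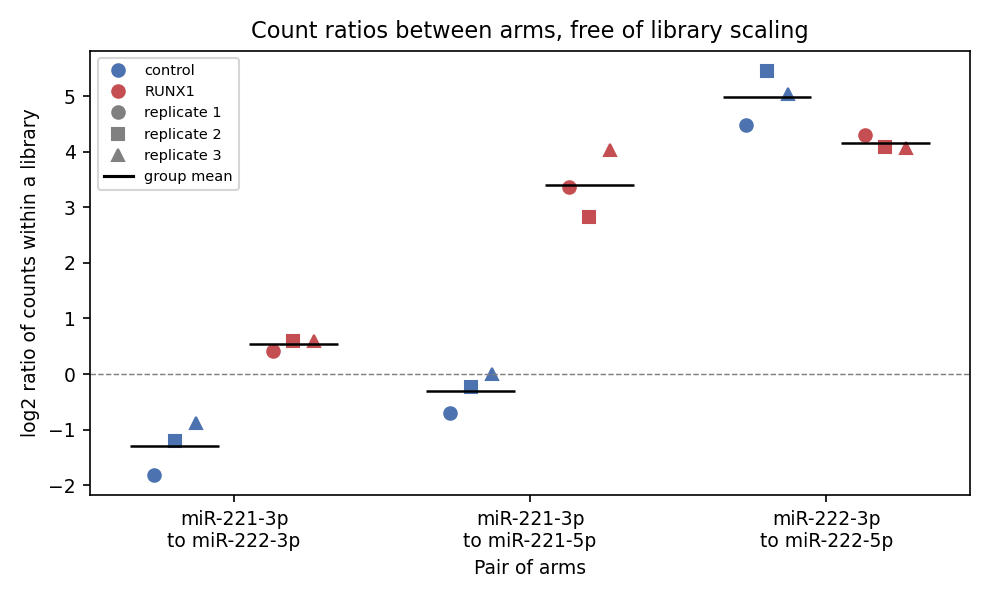
Log2 ratio of counts within each library for miR-221-3p to miR-222-3p, miR-221-3p to miR-221-5p and miR-222-3p to miR-222-5p, with 1 point per library, a line at the group mean of 3 libraries and a dashed line at equal counts. The first 2 ratios go up in RUNX1 samples, to means of 0.54 and 3.41, and the third goes from a mean of 4.99 to 4.15.

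Between the 5p arms, the ratio of miR-221-5p to miR-222-5p, a comparison added after the data were seen, was 10.3, 22.2 and 17.9 in the controls, which compares with 2.55, 3.66 and 1.56 under RUNX1. The log2 ratio was lower in every RUNX1 sample, with a difference of -2.71 between the means (exact permutation test, p = 0.1). Its control values rest on the 1, 2 and 3 counts of miR-222-5p, which passed the filter through its RUNX1 samples alone, so a lower ratio says little beyond that. The 4 exact tests of ratios form 1 family, and after Benjamini-Hochberg adjustment each p stays at 0.1.

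How common such shifts were was read from the 144 microRNAs with both arms tested. The change of the 3p to 5p ratio passed an adjusted p of 0.05 in 62 of them by limma, 30 toward the 3p arm and 32 toward the 5p arm. Toward 3p this is 20.8% of the pairs, and of the 2 precursors here 1, miR-221, was among them. By size miR-221 was in place 2 of 144, after miR-664b with a difference of 6.89, and these were the only pairs with a difference of at least 3. The median size was 0.605, and miR-222 was in place 59. In miR-664b the 3p arm was higher and the 5p arm lower, whereas in miR-221 the 5p arm did not pass the test. The 3p arm of miR-664b had 2, 1 and 4 counts in the controls and 167, 70 and 76 under RUNX1. It passed the filter level of 1.42 CPM only through its RUNX1 samples and so had to differ, and the place of miR-664b is given as a description. The more abundant arm, by mean log2 ratio, switched in 9 of the 62 pairs, and miR-221 was one of these. Its 3p and 5p arms had 118 and 132 counts over the controls, which is near equal, and which arm led in control was not tested.

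**Figure D5:**
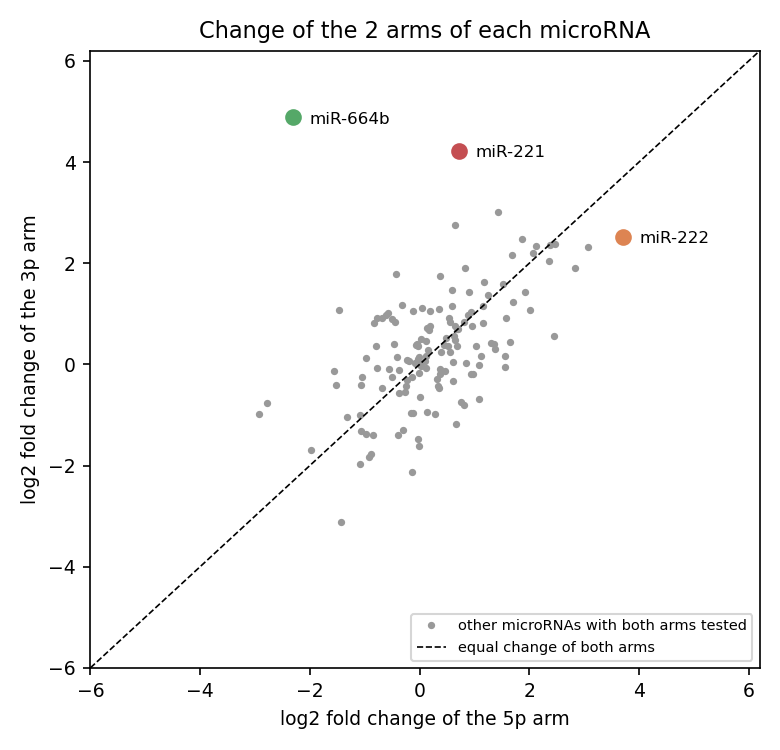
Log2 fold change of the 3p arm against that of the 5p arm for 144 microRNAs with both arms tested, where the dashed line marks equal change. MiR-221 lies well above the line, with 4.22 for its 3p arm and 0.72 for its 5p arm, and miR-222 lies below it with 2.52 and 3.70. MiR-664b, whose 3p arm passed the filter only through its RUNX1 samples, is the pair farthest from the line.

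Since both guides carry the same seed, their counts were also summed. The seed GCUACAU was counted 42, 156 and 176 times in the controls and 2641, 1309 and 1207 times in the RUNX1 samples. In CPM the controls were at 20.04, 19.4 and 23.2, and the RUNX1 samples at 229, 210 and 176. The conditions did not overlap, and the mean went from 20.9 ± 2.04 to 205 ± 26.8 CPM (SD, n = 3 each), a 9.83-fold difference. For the sum, edgeR gave a log2 fold change of 3.29 with a standard error of 0.165 (Benjamini-Hochberg adjusted p = 8.58e-07). Of the summed counts miR-221-3p made up 21.4%, 30.1% and 35.2% in the controls, and 57.3%, 60.3% and 60.2% under RUNX1. Scaled to the microRNA counts of a library alone, the seed had 31.6, 31.2 and 34.6 CPM in the controls and 189, 169 and 170 under RUNX1, so it remained a small share of all microRNAs.

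The letters that pair with the seed, ATGTAGC, occur in the longest annotated 3′ UTR of 1529 of 19146 genes with such a region (7.99%), and in 623 (3.25%) they are followed by an A. Of 6 genes listed as known targets of the pair, 5 held the letters, namely KIT, CDKN1B, CDKN1C, TIMP3 and BBC3, and ICAM1 did not. The sites in KIT and CDKN1B are shown because these are the best known targets, with the letters that pair with the seed in capitals, on the plus strand of GRCh38.
KIT, chr4:54739577-54739603: ttggattcttATGTAGCaggaaataaa
KIT, chr4:54740506-54740532: aaatattgaaATGTAGCaataatgtct
CDKN1B, chr12:12721218-12721244: aaagcgttggATGTAGCattatgcaat
CDKN1B, chr12:12721291-12721317: tttaccttttATGTAGCacataaactt
All lie in the 3′ UTR, those of KIT at positions 1030 and 1959 of 2158. Each is followed by an A. The list was chosen for known targeting, and messenger RNAs were not measured in these libraries, so a match describes the letters only.

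The promoter of the host gene is shown because both guides from this transcript were up-regulated. It covers 250 bases before and 50 after the RefSeq start of MIR222HG, chrX:45770218-45770517 on the minus strand of GRCh38.p14, with the motifs found in capitals.
MIR222HG promoter: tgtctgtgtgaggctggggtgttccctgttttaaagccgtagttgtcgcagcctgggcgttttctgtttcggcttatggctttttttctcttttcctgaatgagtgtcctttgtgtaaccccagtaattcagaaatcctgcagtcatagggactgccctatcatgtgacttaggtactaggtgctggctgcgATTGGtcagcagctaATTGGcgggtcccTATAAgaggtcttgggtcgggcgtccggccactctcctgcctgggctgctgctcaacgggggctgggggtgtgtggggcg
CCAAT, searched on both strands like the other motifs, was found on the reverse strand with its first letters at -58 and -43, and 34.6% of 35116 human promoter windows of this length hold it. TATAA was found at -30, and 20.4% of the windows hold it. The RUNX core letters TGTGGT and TGCGGT had 0 matches, against 13.1% and 7.29% of all windows, and the GATA core GATAA had 0 against 22.7%. This says only that these letters are not in this window.

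Several microRNAs had profiles close to those of the guides over the 6 samples. Likeness was the root mean square difference of log2 CPM, each centred on its own mean, over 597 other tested microRNAs. Closest to miR-221-3p were miR-1269a (0.222), miR-146a-5p (0.228), which dampens innate immune signalling, and miR-187-3p (0.26). MiR-1269a was counted 2, 9 and 10 times in the controls and 468, 207 and 183 times under RUNX1, while miR-146a-5p had 19, 87 and 86 against 2433, 1068 and 1392. For miR-187-3p the counts were 0, 2 and 1 against 90, 40 and 41, with a log2 fold change of 5.19. Its controls were under the floor of 3 counts, so its closeness depends on the handling of low counts. The profiles closest to miR-222-3p were those of miR-653-5p (0.0947), miR-628-5p (0.102) and miR-29a-3p (0.12), with log2 fold changes of 2.47, 2.44 and 2.33. The other arms of the locus were not the nearest neighbours. Seen from miR-221-3p, miR-222-5p was in place 13, miR-222-3p in place 18 and miR-221-5p in place 196. From miR-222-3p, miR-222-5p was in place 11, miR-221-3p in place 174 and miR-221-5p in place 196. With 1, 2 and 3 counts in the controls, the places of miR-222-5p also depend on the handling of low counts. These points share libraries and scaling, and the measure is a description.

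Among 7 other microRNAs with reports of KIT targeting, 5 could be tested, 2 of which rose and 0 fell. MiR-34a-5p, a target of p53, was counted 2, 2 and 8 times in the controls and 47, 27 and 34 times under RUNX1, and its log2 fold change was 2.66 ± 0.421 (standard error, edgeR, Benjamini-Hochberg adjusted p = 0.000566). MiR-34c-5p, which belongs to the same family, had 5, 32 and 35 counts against 164, 85 and 110, and its log2 fold change was 1.89 ± 0.232 (standard error, edgeR, Benjamini-Hochberg adjusted p = 0.000125). In both the conditions were separate, but miR-34a-5p, at 0.248 to 1.05 CPM in control and 4.08 to 4.96 CPM under RUNX1, passed the filter level of 1.42 CPM only through its RUNX1 samples and so had to differ. The log2 fold changes of miR-193a-3p, miR-193b-3p and miR-494-3p were 0.07, -0.07 and 0.30 and did not pass, and miR-218-5p and miR-137 had too few counts for the test. The median of the 5 was 0.30. With 33.4% of the tested microRNAs up-regulated, 2 of 5 is no result about this list.

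Of a list of microRNA arms that RefSeq mature entries place elsewhere on chromosome X, 47 were tested. Among these 19 rose and 10 fell, with a median log2 fold change of 0.45 against 0.11 over all tested microRNAs. With 33.4% of all tested microRNAs up-regulated and 22.6% down-regulated, this is no result about the chromosome, and with library size only 9 rose and 19 fell. Arms of one precursor or cluster share their source in this list. It is partial, since some tested arms are not in it although the other arm of their precursor is. The nearest tested arm of the list lay 4.26 Mb from MIR222.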

How the data were processed

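Total RNA (1000 ng) of 3 control and 3 RUNX1 samples, described by the submitters as biological triplicates, was made into libraries with the TruSeq Small RNA kit and sequenced as single reads. The authors demultiplexed the reads with CASAVA 1.8.2, and their processing notes name the build hg19. The deposited values are whole-number counts per annotated small RNA without normalization. The aligner and the rule for reads with more than 1 match are not given in the sources used here. Groups and replicate numbers follow the sample titles. Control and RUNX1 library names differ in a letter, and should it stand for a preparation, this cannot be told apart from the condition. RUNX1 replicates 1 and 2 have the same number in their library names but not in their titles, and differed by more than sampling noise, so they were kept as separate samples. Whether the names hold an error is unknown, and the pairing by number rests on the titles. Rows that name no small RNA held 0 counts.

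The count test was edgeR 4.0.16 in R 4.3.3 on all small RNAs (filterByExpr with a minimum count of 10 and a minimum total of 15, TMM, glmQLFit and glmQLFTest, condition as the only term). Small RNAs were called with P-values under 0.05 and log2 fold changes of 0.5 or more in either direction. P-values were adjusted by Benjamini-Hochberg over the 947 tested. The P-values set the difference between conditions against the spread between these samples of a single line. EdgeR estimates that spread with the help of all tested small RNAs. Depth was 1618248 to 15245007 counts. Ratios within a library used a pseudocount of 0.5 and exact permutation tests, and limma 3.58.1 over 144 arm pairs was added after the data were seen. Alternatives were DESeq2 1.42.0, RLE factors, library size only, TMM on microRNAs, dropping the filter, requiring 10 counts in every library, calling by the adjusted P-value or with log2 fold changes of 1, a pseudocount of 1 or none, the replicate number as a block, and each sample left out. The fits were run on simulated counts with the same dispersion for every small RNA and changes of a fixed size in random directions. No shift like that of miR-10a-5p was built in, so this says nothing about the scaling of these libraries. The members and lists were chosen with earlier results of these data known. Named microRNAs are the 4 arms, the 3 arms most like each guide (prior count 2), members of the KIT-linked list and cell type markers. MiR-664b was named after its values were seen, since it alone exceeds miR-221 in the arm comparison. Sequences are from RefSeq (GRCh38.p14) and GENCODE 29 (GRCh38), joined by name, and no coordinates of another build were used.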

Additional observations from a re-analysis of the deposited data

How the results depend on the processing

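MiR-221-3p, miR-222-3p and the summed seed kept their direction and their call under every alternative that gave a value, with log2 fold changes of 3.53 to 4.52, 1.81 to 2.73 and 2.58 to 3.47. MiR-222-5p ran from 3.02 to 3.89, which is no sign of stability, since it passed the filter only through its RUNX1 samples. MiR-221-3p and miR-222-5p could not be tested with at least 10 counts in every sample. MiR-221-5p passed the thresholds with DESeq2 (0.82), with RLE factors (0.81) and without a count filter (0.80), its adjusted p running from 1.86e-05 to 0.995 over the alternatives, and was -0.0019 (standard error 0.308) with library size only, which is no direction. That scaling lowers the median of all tested small RNAs by 0.698. With single libraries left out its value ran from 0.46 to 1.09, and those of miR-221-3p, miR-222-3p, miR-222-5p and the sum from 4.14 to 4.52, 2.42 to 2.73, 3.42 to 3.89 and 3.22 to 3.47. The log2 ratios of miR-221-3p to miR-222-3p, miR-221-3p to miR-221-5p and miR-222-3p to miR-222-5p then ran from 1.58 to 2.05, 3.41 to 4.01 and -1.09 to -0.60. With a pseudocount of 1 the third was -0.57 (exact permutation test, p = 0.2). By limma over the arm pairs the differences of the first and the second, 1.84 and 3.72, passed an adjusted p of 0.05, which the exact test cannot reach.

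The small RNAs up-regulated numbered 120 with library size only, 170 with a log2 fold change of at least 1 and 253 to 309 with single libraries left out, against 265 in the main comparison. Down-regulated ones numbered 521 with library size only and 261 to 303 with libraries left out, against 280. TMM on microRNAs lowered the median of all by 0.193 on the log2 scale. Of the chromosome X list, 9 rose and 19 fell with library size only, and 12 rose with at least 10 counts in every sample. With libraries left out, 16 to 25 rose and 10 to 11 fell. In the KIT-linked list 0 rose with at least 10 counts in every sample, 1 fell with library size only, and 2 rose and 0 fell with each library left out.

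Same-numbered samples did not deviate together (correlations of -0.0327, -0.0904 and 0.0178). With so few samples this cannot tell whether they share more than a number. The replicate block left all 14 results on the same side of their thresholds, with 0.63 for miR-221-5p, and the ratios then had a sign-flip p of 0.25, the smallest possible. Depth limits miR-222-5p most, with 6 control counts in all.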
